A study of Homo sapiens with 14 samples.

Results

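The transcriptome of endoderm made from H9 human embryonic stem cells (hESC) was set against that of the undifferentiated line. Of the 14 samples of the series, 5 bulk RNA-seq libraries were used, taken by their labels: 2 libraries of hESC and 3 libraries of control endoderm. The hESC were grown in mTeSR Plus on Matrigel. The endoderm cells expressed dCAS9-KRAB, a nuclease-dead Cas9 fused to a repressor domain, without any guide RNA. Their differentiation lasted 3 days. A ligand of the Nodal pathway, Activin A, was present throughout at 100 ng/ml. WNT signalling was activated by inhibiting GSK-3 with CHIR99021, whose dose was 5 µM at first and was lowered to 0.5 µM on the second day. The labels of the hESC do not mention dCAS9-KRAB. The study's methods state that cells transduced with dCAS9-KRAB were selected and kept in puromycin before differentiation. Differentiation, medium, and the presence of dCAS9-KRAB with this selection cannot be told apart in this comparison. H9 is 1 established cell line, and the labels do not say how its replicates were separated. The study's own statement on replication calls those of RNA-seq biologically independent. The p-values measure the spread between these libraries.

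Definitive endoderm is the germ layer that forms the gut tube, liver, pancreas and lung. It arises from cells of the primitive streak that are exposed to strong Nodal signalling, and Activin A stands in for Nodal in culture while a WNT stimulus induces the streak state. Transposable elements (TEs) are repeated sequences left by past transposition. Some endogenous retroviruses among them, such as HERVH with its LTR7 promoter, are transcribed in pluripotent cells.

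Reads in genes numbered 23539769 and 22557988 in hESC replicates 1 and 2 and 19666076, 21534304 and 16376503 in endoderm replicates 1, 2 and 3. Reads in TE loci numbered 364255 and 351769 in hESC and 294195, 286555 and 198031 in endoderm. Across genes, log2(CPM + 1) values (CPM, gene reads per 1000000 of the library, scaled by TMM factors) correlated at 0.994 between the hESC libraries, at 0.986 to 0.995 among the endoderm libraries and at 0.921 to 0.933 between the groups. Genes of the mitochondrial genome took 25.5% and 16.9% of gene reads in hESC and 8.30%, 13.7% and 14.4% in endoderm, so hESC replicate 1 was highest and endoderm replicate 1 lowest. Endoderm replicate 1 correlated at 0.986 and 0.987 with the other endoderm libraries, which correlated at 0.995 with each other. hESC replicate 1 also stood apart in thinly covered TE loci, as described with the TEs. Values per library are given below in CPM, with hESC replicates 1 and 2 first and endoderm replicates 1, 2 and 3 after. A log2 fold change is endoderm over hESC with its standard error (SE), and an adjusted p comes from the quasi-likelihood F test of edgeR with Benjamini-Hochberg adjustment (n = 2 and n = 3). A gene was called at an adjusted p under 0.05 and a fold over 2, and the words rose and fell are kept for called genes. Groups without overlap are common, at 12559 of 20818 tested genes (60.3%) and 5389 of 5405 called genes (99.7%), so below they add little to a call.

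The marker genes fitted the labels in part. Of 12 tested markers of definitive endoderm, 11 rose. The chemokine receptor CXCR4 was at 7.2 and 4.21 CPM against 369, 289 and 245 CPM (log2 fold change 5.72 ± 0.30, adjusted p = 2.03e-09). The transcription factor HHEX was at 7.54 and 6.34 CPM against 50.6, 54 and 50.1 CPM and OTX2 at 85.5 and 69.6 CPM against 478, 544 and 499 CPM. For each of these the 3 endoderm libraries lay above both hESC libraries. FOXA1, the marker that was not called, was at 3.99 and 3.52 CPM against 7.87, 6.7 and 5.32 CPM. All 8 primitive streak markers, which share GSC and EOMES with the endoderm list, also rose. Among them MIXL1 was at 2.34 and 1.35 CPM against 997, 653 and 892 CPM (log2 fold change 8.84 ± 0.34, adjusted p = 1.27e-10), GSC at 0.39 and 0.286 CPM against 102, 101 and 102 CPM and TBXT at 0.0867 and 0.0818 CPM against 27.8, 23 and 22.7 CPM. These streak genes were thus detected in every endoderm library.

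Of 12 pluripotency genes, 8 fell, 1 rose and 3 were not called. The deubiquitinase gene USP44 was at 259 and 184 CPM against 27.9, 18.4 and 16.3 CPM (log2 fold change -3.41 ± 0.24, adjusted p = 3.47e-08), ZFP42 at 149 and 157 CPM against 28.7, 22.2 and 15.5 CPM and DPPA4 at 445 and 464 CPM against 130.5, 106 and 92.2 CPM. All 3 were lower in every endoderm library than in either hESC library. POU5F1 was not called at 292 and 572 CPM against 841, 723 and 676 CPM (log2 fold change 0.79 ± 0.24), and was called higher without hESC replicate 2 (1.35). NANOG was at 28.5 and 46.9 CPM against 27.9, 30.8 and 22.4 CPM, and its groups overlapped. POU5F1 and NANOG have processed pseudogenes, so their counts are less certain. TDGF1, the Nodal co-receptor, was the marker called higher, at 326 and 288 CPM against 842, 573 and 536 CPM (log2 fold change 1.08 ± 0.21, adjusted p = 0.000848), a call lost by a fold under the limit without hESC replicate 2 (adjusted p = 0.0427) and without endoderm replicate 1 (log2 fold change 0.85). In bulk RNA, fewer cells of a type and less RNA per cell cannot be told apart, so these values do not say how many cells kept POU5F1.

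Markers of other cell types moved as well. For mesoderm, 5 of 10 tested markers were called higher, with a summed level of 72.2 and 75.2 CPM in hESC and 378, 142 and 218 CPM in endoderm. PDGFRA was the most abundant gene of this list in endoderm replicates 1 and 3 and varied between replicates, at 0.65 and 0.818 CPM against 184, 50.9 and 91.2 CPM (log2 fold change 7.20 ± 0.54, adjusted p = 6.87e-08). HAND1 had no read in hESC and was at 13.9, 11.8 and 26.1 CPM in endoderm, while MSGN1 and TWIST1 (called higher at an adjusted p of 0.0402 without a low-count filter) were called in neither direction and MEOX1 had no read. For extraembryonic endoderm, 4 of 8 tested markers were called higher and 3 lower, or 2 higher without either hESC replicate, with DESeq2, with limma-voom and with the replicate number as a block, and 1 higher with glmTreat. HNF4A had no read in hESC and was at 4.42, 21.7 and 18.3 CPM in endoderm, whereas AFP was at 1.04 and 0.981 CPM in hESC with no read in endoderm and TTR had no read in any library. LAMA1 was the most abundant of that list, at 123 and 128 CPM against 163, 182 and 181 CPM. Of 9 markers of amnion and trophoblast 3 were called higher and 2 lower. Of 8 neural ectoderm markers 3 were called higher and 2 lower, and without hESC replicate 1 edgeR called none of them higher, with 3 higher at an unadjusted p under 0.05. Of 7 primordial germ cell markers 2 were called higher (1 without hESC replicate 1) and 1 lower, and of 4 for blood and endothelium 1 was called higher and 1 lower (2 without endoderm replicate 2). The part of other cell types in the results below was not tested.

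Across the transcriptome, 20818 genes were tested and 5405 were called (26.0%), 2957 higher (14.2%) and 2448 lower (11.8%) in endoderm. The median log2 fold change over all tested genes was 0.04. Large changes were more often rises: 963 called genes rose by over 8-fold and 392 fell by over 8-fold, and over 32-fold the numbers were 512 and 95. No read was seen in either hESC library for 302 genes called higher, and no read in any endoderm library for 63 called lower. Of 15277 tested protein-coding genes 2330 rose and 2128 fell. Of 2775 long non-coding RNA genes 325 rose and 189 fell. Processed pseudogenes were called higher 154 times and lower 25 times among 1276 tested, and reads of their parent genes may be counted in them. With glmTreat, which tests for a fold over 2 rather than over 1, 2774 genes were called, and the genes named here that it did not call include TGFBR3, SMO, IRS1, EFNB2, SEMA6A, ELOVL6, SLC11A2, VCAN, IFNGR2, RPL3, RPS2, RPS10 and TDGF1. Without hESC replicate 1 the number of called genes was 4006, and without hESC replicate 2 it was 4448.

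The largest gains of CPM included those of glycolytic enzymes, ribosomal proteins and CER1. CER1, a secreted antagonist of Nodal, BMP and WNT ligands, was at 0.303 and 0.0818 CPM against 4035, 3590 and 4166 CPM (log2 fold change 14.29 ± 0.39, adjusted p = 4.59e-12). ENO1, the enolase of glycolysis, was at 2852 and 2792 CPM against 9092, 7592 and 8875 CPM (log2 fold change 1.59 ± 0.18, adjusted p = 3.87e-06), and the ribosomal protein genes RPL3 and RPS2 were at 1416 and 2057 CPM against 4891, 3724 and 4283 CPM and at 1659 and 1946 CPM against 4100, 4055 and 4524 CPM. Every endoderm library exceeded both hESC libraries for these 4 genes. Among the largest fold changes, several genes outside the lineage markers had no read in hESC. DIO3, which inactivates thyroid hormone, was at 217, 162 and 157 CPM in endoderm (at least 2830-fold higher), CD48, a surface protein of the SLAM family, at 72.5, 101 and 128 CPM (at least 1592-fold higher), and GYPB, a glycophorin, at 21, 27.3 and 46.3 CPM (at least 499.7-fold higher). GYPB has near-identical relatives, so its counts are uncertain. ANGPT2, a ligand of the TIE2 receptor, was at 0 and 0.0409 CPM against 103, 67 and 96.5 CPM (a ratio of 4169 with a 95% counting interval of 748 to 164683). Counting intervals, here and below, pool the reads of each group and leave out the spread between libraries.

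Outside the mitochondrial genome, the largest losses of CPM included DNMT3B, a de novo DNA methyltransferase, at 1143 and 1202 CPM against 187, 258 and 200.3 CPM (log2 fold change -2.45 ± 0.19, adjusted p = 7.34e-08). SEPHS1, a selenophosphate synthetase family member, was at 1007 and 1065 CPM against 203, 214 and 183 CPM (log2 fold change -2.37 ± 0.17, adjusted p = 4.36e-08), and the splicing factor SRSF1 at 697 and 618 CPM against 111, 111 and 92.2 CPM (log2 fold change -2.65 ± 0.18, adjusted p = 2.15e-08). For these genes each endoderm library was below both hESC libraries. By fold change, GDPD2, SORBS2, CAMKV, ZDHHC22 and CNMD were among the 10 largest falls of a limited set. It held called genes with separate groups and at least 20 CPM in the higher group, and genes below that level were not ranked. CNMD, which encodes chondromodulin, was at 137 and 121 CPM against 3.25, 4.93 and 3.5 CPM, and SORBS2, an adaptor of the actin cytoskeleton, at 88.1 and 94.2 CPM against 1.27, 2.14 and 2.08 CPM. The palmitoyltransferase family gene ZDHHC22 was at 76.3 and 69.6 CPM against 2.54, 2 and 2.01 CPM. All 3 were lower in every endoderm library, as the selection of this set required.

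**Figure D1:**
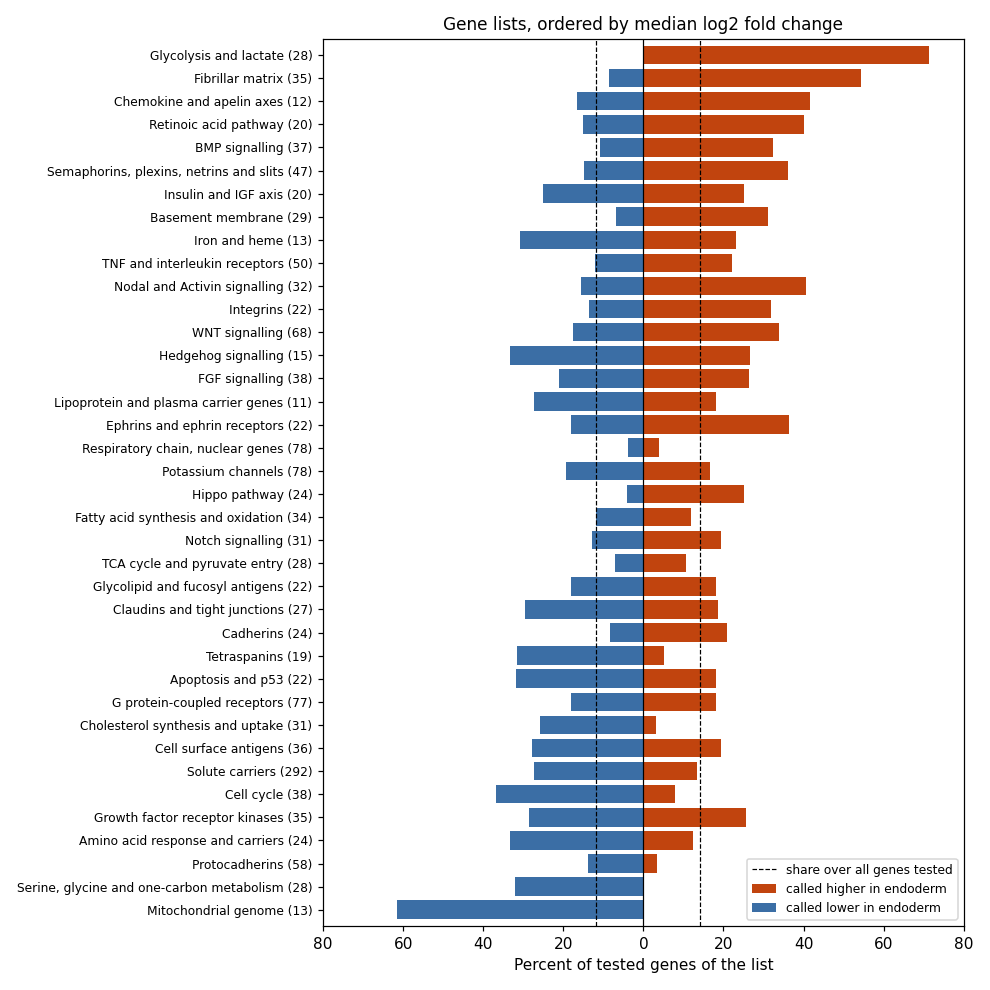
Percent of the tested genes of each list that were called higher (right) or lower (left) in endoderm, with the number tested in parentheses. Dashed lines give the shares over all tested genes, 14.2% and 11.8%. Glycolysis and fibrillar matrix genes lead on the right and the mitochondrial genome on the left.

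Nodal and Activin signalling was the pathway stimulated in the culture. In its list 13 of the 32 tested genes were called higher and 5 lower, with a median log2 fold change of 0.44, but 0.69 without hESC replicate 1 against 0.04 over all genes. The lower count was 3 without either hESC replicate and without endoderm replicate 2 or 3. By role, 4 of 10 tested ligands and co-receptors rose and 3 fell, 1 of 7 receptors fell, 2 of 5 intracellular components rose, and 7 of 10 inhibitors rose and 1 fell. The ligand NODAL was at 1.95 and 2.25 CPM against 159, 217 and 183 CPM (log2 fold change 6.47 ± 0.27, adjusted p = 2.09e-10). Its inhibitors LEFTY1 and LEFTY2, which are themselves induced by the pathway, were at 4.6 and 2.04 CPM against 69.3, 212 and 119 CPM and at 1.65 and 1.31 CPM against 30.7, 83.8 and 43.2 CPM. All 3 were higher in each endoderm library, with endoderm replicate 2 highest for each. The type II receptor ACVR2B, at 76 and 68.5 CPM against 123, 83.8 and 83 CPM, and the transducer SMAD2, at 74 and 55.6 CPM against 94.2, 83.6 and 88.4 CPM, were not called. The receptor that fell was TGFBR3, which presents ligands to the others, at 11.4 and 10.1 CPM against 5.69, 4.47 and 3.7 CPM (log2 fold change -1.21 ± 0.27, adjusted p = 0.00187).

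WNT signalling was the other pathway stimulated in the culture. Its list had 23 of 68 tested genes called higher and 12 lower, with a median of 0.36, but 0.56 without endoderm replicate 2. Among 14 tested ligands 6 rose and 1 fell, among 22 agonists and receptors 7 rose and 5 fell, and among 18 secreted and membrane inhibitors 5 rose and 5 fell. SP5, a transcription factor gene directly induced by beta-catenin, was at 0.0867 and 0.164 CPM against 49.2, 58.1 and 54.6 CPM (log2 fold change 8.67 ± 0.36, adjusted p = 2.01e-10). WNT4 was at 0.173 and 0.123 CPM against 43.4, 17.9 and 37.7 CPM, and the secreted antagonist DKK1 at 0.0867 and 0.0818 CPM against 7.06, 18.1 and 22.8 CPM. LGR5, a receptor for R-spondins, was at 0 and 0.0409 CPM against 5.43, 8.33 and 13.7 CPM (a ratio of 417 with a 95% counting interval of 74.5 to 16511). These 4 genes were near 0 in both hESC libraries and clearly counted in each endoderm library. SFRP2, a secreted WNT-binding protein, fell, at 484 and 428 CPM against 104, 122 and 87.7 CPM (log2 fold change -2.12 ± 0.19, adjusted p = 3.98e-07). The receptor ROR1 was at 102 and 97.1 CPM against 28.3, 30.6 and 24.2 CPM, and the cyclin CCND1 at 136 and 185 CPM against 47.3, 52.2 and 41 CPM. The abundant genes CTNNB1 (beta-catenin) and SFRP1 were not called and their groups overlapped, with CTNNB1 at 415 and 486 CPM against 429, 509 and 462 CPM.

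FGF ligands differed between the groups in both directions. In the FGF list 10 of the 38 tested genes were called higher and 8 lower, with a median of 0.31, but 0.56 without hESC replicate 1, and 7 of 18 tested ligands and binding proteins rose while 4 fell. FGF17 was at 0.26 and 0.0818 CPM against 1156, 1066 and 1148 CPM (log2 fold change 12.65 ± 0.37, adjusted p = 5.92e-12) and FGF8 at 0.0867 and 0.204 CPM against 19.9, 26.3 and 28.1 CPM (log2 fold change 7.34 ± 0.41, adjusted p = 2.96e-09). FGF2, the factor that supports self-renewal of hESC, was at 47.3 and 59.9 CPM against 12.3, 4.84 and 3.89 CPM (log2 fold change -2.92 ± 0.35, adjusted p = 9.64e-06), and the FGF-binding protein gene FGFBP3 at 132 and 135 CPM against 14.2, 9.35 and 9.27 CPM. Neither set overlapped between groups. Per kilobase of exon, the mean level in endoderm was 342 CPM for FGF17 and 17.1 CPM for FGF8, against 1.03 CPM for FGF2, while in hESC FGF2 was at 7.88 CPM per kilobase and FGF17 at 0.052 CPM. Feedback phosphatases moved in opposite directions: DUSP4 was at 26 and 25.1 CPM against 294, 301 and 282 CPM (log2 fold change 3.52 ± 0.20, adjusted p = 4.09e-09) and DUSP6 at 277 and 200.1 CPM against 80.2, 38.1 and 33.3 CPM (log2 fold change -2.24 ± 0.30, adjusted p = 2.51e-05). The immediate early gene EGR1 fell, at 6.11 and 5.77 CPM against 1.62, 0.605 and 0.584 CPM. The receptor FGFR1 was not called at 284 and 304 CPM against 262, 229 and 201 CPM, with no overlap of the groups.

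In the BMP list 12 of the 37 tested genes were called higher and 4 lower (median 0.74), the lower count being 1 without hESC replicate 1 and 2 without hESC replicate 2. The extracellular regulator BMPER was at 0.0433 and 0.0818 CPM against 21.3, 15.2 and 27 CPM (a ratio of 325 with a 95% counting interval of 111 to 1579). The homeobox genes MSX1 and MSX2, known BMP targets, were at 0.13 and 0.164 CPM against 11.3, 4.42 and 14 CPM and at 0.303 and 0.245 CPM against 17.3, 15.6 and 22.7 CPM. All were higher in every endoderm library. The antagonist CHRDL1 fell, at 21.3 and 23.7 CPM against 5.69, 4.75 and 4.67 CPM (log2 fold change -2.16 ± 0.23, adjusted p = 2.79e-06). ID3, another target, stayed under the fold limit at 59.6 and 59.99 CPM against 84.9, 85 and 98.7 CPM. The retinoic acid list had 8 of 20 genes called higher and 3 lower (median 0.82), or 5 higher without hESC replicate 1.

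Within the retinoic acid list, the clearing enzyme CYP26A1 was at 14.2 and 10.9 CPM against 1096, 806 and 701 CPM (log2 fold change 6.11 ± 0.28, adjusted p = 4.67e-10), and the nuclear receptor RXRG at 0.173 and 0.123 CPM against 39.3, 44 and 44.2 CPM (log2 fold change 8.11 ± 0.35, adjusted p = 2.35e-10). The binding protein CRABP2 was at 37 and 42.3 CPM against 373, 198 and 326 CPM, and ALDH1A3, which makes retinoic acid, at 2.86 and 2.21 CPM against 28.5, 19.1 and 17.3 CPM. LRAT, which stores retinol as ester, fell, at 104 and 105 CPM against 9.64, 14.3 and 9.27 CPM (log2 fold change -3.23 ± 0.22, adjusted p = 2.19e-08), as did RDH10, which oxidises retinol, at 5.81 and 7.36 CPM against 2.64, 2.14 and 1.23 CPM. The endoderm libraries were thus all above hESC for clearance, binding and synthesis genes named here and all below for storage and retinol oxidation.

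**Figure D2:**
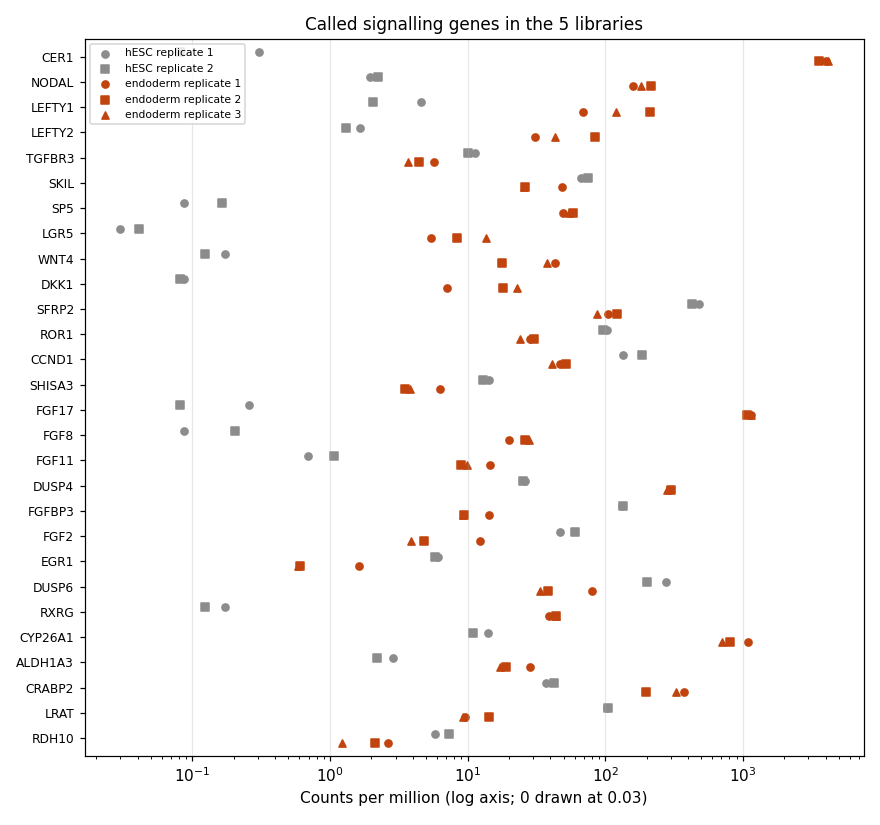
CPM (log axis) in each of the 5 libraries of the called genes named by the rule from the Nodal, WNT, FGF and retinoic acid lists, hESC in grey and endoderm in red. For each gene the 2 groups are separate: CER1 and FGF17 pass 1000 CPM in endoderm, and FGF2 and LRAT lie higher in hESC.

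In the Notch list 6 of the 31 tested genes were called higher and 4 lower (median -0.06, but -0.01 without hESC replicate 2, and -0.10 and 0.02 without endoderm replicates 1 and 3), and the lower count was 7 without endoderm replicate 1. With all libraries the shares were 19.4% and 12.9%, near the 14.2% and 11.8% over all genes. The ligand DLL3 rose, at 1.78 and 1.39 CPM against 47.9, 22 and 48.9 CPM (log2 fold change 4.64 ± 0.38, adjusted p = 1.51e-07), as did the coactivator MAML3, at 3.04 and 4.7 CPM against 38, 39.1 and 30.5 CPM. The feedback inhibitor NRARP fell, at 25.9 and 26.1 CPM against 3.86, 4.05 and 4.28 CPM (log2 fold change -2.68 ± 0.23, adjusted p = 2.28e-07), and so did the glycosyltransferase LFNG, at 16.3 and 10.6 CPM against 2.64, 3.63 and 2.14 CPM. None of these overlapped between groups. Hedgehog genes were called higher 4 times and lower 5 times among 15 (median 0.35, but 0.19 and 0.18 without endoderm replicates 1 and 3), or 1 higher without hESC replicate 2 and 2 higher without hESC replicate 1 or endoderm replicate 2. The signal transducer SMO was at 126 and 106 CPM against 46, 53.2 and 44.4 CPM (log2 fold change -1.28 ± 0.18, adjusted p = 5.66e-05) and the target gene GLI1 at 9.19 and 8.75 CPM against 3.05, 2 and 2.46 CPM, both lower in each endoderm library, while the receptor PTCH1 was not called. In the Hippo list 6 of the 24 tested genes were called higher and 1 lower (median 0.02, but -0.06 and 0.08 without hESC replicates 1 and 2, and -0.12, 0.08 and 0.13 without endoderm replicates 1, 2 and 3). The YAP-binding scaffold AMOTL1 rose, at 39 and 44.8 CPM against 161, 130.2 and 129 CPM, WWC1 (also named KIBRA) fell, at 18.3 and 30.01 CPM against 5.23, 4.47 and 3.44 CPM, and the coactivator YAP1 was not called, at 128 and 129 CPM against 173, 120.4 and 112 CPM, with overlapping groups.

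Growth factor receptors were called in both directions. In the list of receptor kinases and their ligands 9 of the 35 tested genes were called higher and 10 lower (median -0.49, or -0.38 with genes at 0 reads in a group set to their bound, but -0.16 without hESC replicate 1). ERBB4, a receptor of neuregulins, was at 0.303 and 0.0818 CPM against 152, 109 and 120 CPM (log2 fold change 9.34 ± 0.39, adjusted p = 2.09e-10), whereas ERBB2 of the same family was at 417 and 382 CPM against 82.2, 94.6 and 77.2 CPM (log2 fold change -2.24 ± 0.18, adjusted p = 1.26e-07). The VEGF receptor FLT1 was at 59.4 and 62.5 CPM against 12.1, 10.8 and 8.24 CPM, the neurotrophin receptor NTRK3 at 16.4 and 16.6 CPM against 1.88, 0.512 and 0.648 CPM, and the HGF receptor MET at 16.4 and 11.3 CPM against 2.33, 2.47 and 1.75 CPM. ERBB4 was higher in every endoderm library, and the other 4 receptors were lower in each. In the insulin and IGF list 5 of the 20 tested genes were called higher and 5 lower (median 0.57, or 0.34 with genes at 0 reads in a group set to their bound, but 0.33 without endoderm replicate 1). The binding protein IGFBP5 was at 1.08 and 2.33 CPM against 42.6, 43.7 and 31.1 CPM (log2 fold change 4.51 ± 0.33, adjusted p = 5.11e-08) and IGFBP2 at 236 and 200.2 CPM against 1035, 509 and 498 CPM, while IGFBP3 was at 4.81 and 6.95 CPM against 0.152, 0.558 and 0.195 CPM. The adaptor IRS1 fell, at 20.2 and 23.3 CPM against 12.5, 6.23 and 6.23 CPM (log2 fold change -1.38 ± 0.29, adjusted p = 0.00131).

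Chemokine and apelin genes included some of the larger differences at the cell surface, with 5 of 12 called higher and 2 lower (median 1.09). The apelin receptor APLNR was at 0.824 and 0.573 CPM against 331, 146 and 298 CPM (log2 fold change 8.52 ± 0.44, adjusted p = 1.33e-09), while APELA, which encodes its ligand ELABELA, was at 15.1 and 22.5 CPM against 0.609, 0.651 and 0 CPM (log2 fold change -5.37 ± 0.49, adjusted p = 4.67e-07). Receptor and ligand thus lay high in opposite groups, each without overlap, and the other ligand APLN was not called, with overlapping groups. The atypical receptor ACKR3, which binds CXCL12 as CXCR4 does, was at 0.824 and 1.1 CPM against 29.4, 90.02 and 67.6 CPM. CXCL12 itself was not called, at 53.1 and 57 CPM against 40.8, 20.8 and 21.9 CPM, and was called lower with limma-voom (log2 fold change -1.05) and without endoderm replicate 1 (-1.37). The chemokine CCL2 was at 1.13 and 0.654 CPM against 39, 61 and 60.4 CPM.

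Guidance systems were called higher more often than lower. Of 22 ephrins and their receptors 8 rose and 4 fell (median 0.18, but 0.31 and -0.01 without hESC replicates 1 and 2, and 0 and 0.06 without endoderm replicates 1 and 3). The receptor EPHB3 was at 13.1 and 10.6 CPM against 139.9, 124 and 136 CPM (log2 fold change 3.50 ± 0.22, adjusted p = 8.7e-09) and EPHA2 at 16.6 and 14.2 CPM against 73.7, 109 and 108 CPM (log2 fold change 2.66 ± 0.24, adjusted p = 3.98e-07), both above hESC in all endoderm libraries. EPHA1 was at 229.9 and 149 CPM against 68.3, 64.1 and 42.2 CPM (log2 fold change -1.70 ± 0.23, adjusted p = 3.34e-05), and the ligand EFNB2 at 43.4 and 45.3 CPM against 16.4, 19.8 and 15.1 CPM, both below. Of 47 semaphorin, plexin, netrin and slit genes 17 rose and 7 fell (median 0.69). PLXNA2, a semaphorin receptor, was at 2.65 and 1.76 CPM against 314, 226 and 269 CPM (log2 fold change 6.94 ± 0.29, adjusted p = 2.09e-10), NTN1 at 3.77 and 5.36 CPM against 262, 163 and 160.1 CPM, and SEMA3E at 1.43 and 1.68 CPM against 37.2, 61.9 and 50.4 CPM. SEMA6A fell, at 274 and 338 CPM against 153, 134 and 82.3 CPM (log2 fold change -1.31 ± 0.23, adjusted p = 0.000311).

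Metabolic genes were led by glycolysis. Of 28 tested genes of glycolysis and lactate 20 rose, with a median log2 fold change of 1.61 against 0.04 over all genes, and their summed level was 17493 and 16194 CPM in hESC and 54784, 43501 and 49887 CPM in endoderm. Between 16 and 21 of the 28 were called higher in the alternatives run. With edgeR 0 were called lower, 0 fell at an unadjusted p under 0.05, and DESeq2 and limma-voom also called 0 lower. The lactate exporter gene SLC16A3 was at 2.65 and 1.43 CPM against 307, 243 and 221 CPM (log2 fold change 6.98 ± 0.32, adjusted p = 4.25e-10). PDK1, the kinase that switches off pyruvate dehydrogenase, was at 18.2 and 15 CPM against 743, 435 and 424 CPM (log2 fold change 5.01 ± 0.30, adjusted p = 5.72e-09). PKM, the pyruvate kinase, was at 622 and 665 CPM against 6997, 5268 and 6322 CPM (log2 fold change 3.27 ± 0.20, adjusted p = 8.35e-09), and LDHA, which turns pyruvate into lactate, at 1017 and 867 CPM against 6238, 5376 and 6498 CPM (log2 fold change 2.68 ± 0.19, adjusted p = 3.96e-08). The glucose carrier SLC2A3 was at 674 and 492 CPM against 3736, 2523 and 2472 CPM and the bifunctional regulator of phosphofructokinase activity PFKFB4 at 12.8 and 12.2 CPM against 289.6, 235 and 236 CPM. For all of these the 3 endoderm libraries exceeded both hESC libraries, and all but LDHA were highest in endoderm replicate 1, as was the summed level. PKM and LDHA have processed pseudogenes that can share their reads.

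Genes of the list that were not called included GAPDH, at 5434 and 5090 CPM against 9283, 8396 and 9698 CPM (log2 fold change 0.79 ± 0.17, adjusted p = 0.00142), which had an adjusted p under the threshold and a fold under the limit. LDHB, which favours the reverse reaction of LDHA, was at 2044 and 1745 CPM against 1494, 1728 and 1952 CPM (log2 fold change -0.14 ± 0.18, adjusted p = 0.58), and its groups overlapped.

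The promoters of 2 risen genes of the glycolysis list are shown, from 250 bases before to 50 bases after the transcription start in the RefSeq table on GRCh38.p14. The LDHA promoter (Homo sapiens, chr11:18394313-18394612, plus strand) and the PGK1 promoter (chrX:78103998-78104297, plus strand) were chosen after their values were seen, for holding the letters ACGTG or GCGTG on either strand several times, which are in capitals (their complements read CACGT and CACGC). These letters form the core that hypoxia-inducible factors can bind, and CACGTG, which holds ACGTG on both strands, is also the E-box of MYC and other factors. Either motif was found in 14 of 19 promoters of called-higher glycolysis genes (73.7%). The share was 48.4% of all 27305 promoters of the table, 59.4% of 1809 promoters of protein-coding genes called higher, 60.9% of 1686 called lower and 61.4% of 8738 not called. Neither motif was in the promoters of SLC16A3 and PDK1, which had large rises, or of the risen genes PFKP, PGAM1 and TPI1. A match is a description of letters and not a bound site.
LDHA promoter: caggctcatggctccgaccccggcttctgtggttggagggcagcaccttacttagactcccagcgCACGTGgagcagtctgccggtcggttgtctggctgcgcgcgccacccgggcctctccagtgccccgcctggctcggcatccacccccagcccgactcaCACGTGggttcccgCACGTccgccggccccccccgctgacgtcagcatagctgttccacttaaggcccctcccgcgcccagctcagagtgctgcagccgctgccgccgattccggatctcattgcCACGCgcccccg
PGK1 promoter: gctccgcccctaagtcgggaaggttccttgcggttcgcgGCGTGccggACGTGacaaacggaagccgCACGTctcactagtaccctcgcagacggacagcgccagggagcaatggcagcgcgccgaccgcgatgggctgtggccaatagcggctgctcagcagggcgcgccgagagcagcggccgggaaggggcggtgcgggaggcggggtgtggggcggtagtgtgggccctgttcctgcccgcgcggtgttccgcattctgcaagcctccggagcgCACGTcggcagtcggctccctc

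PGK1, phosphoglycerate kinase, also chosen after its values were seen, was at 394 and 389 CPM against 3099, 1705 and 1919 CPM (log2 fold change 2.52 ± 0.25, adjusted p = 1.24e-06), above both hESC libraries in all 3 endoderm libraries and highest in endoderm replicate 1. Downstream of pyruvate few genes of the respiratory chain were called, and TCA genes were called at shares near those over all genes. Of 28 genes of the TCA cycle and pyruvate entry 3 rose (1 without hESC replicate 1) and 2 fell, with a median of -0.06, but 0.04 and -0.21 without hESC replicates 1 and 2, and 0.01, -0.11 and -0.12 without endoderm replicates 1, 2 and 3. Of 78 nuclear genes of the respiratory chain 3 rose and 3 fell (median 0.13, but 0.26 and 0.04 without endoderm replicates 1 and 3). Called higher and lower were 10.7% and 7.14% of the TCA list and 3.85% each of the respiratory chain list. Over all genes the shares were 14.2% and 11.8%. PDHB, a subunit of pyruvate dehydrogenase, was at 112 and 114 CPM against 295, 293 and 292 CPM (log2 fold change 1.38 ± 0.18, adjusted p = 2.03e-05), and the pyruvate carrier MPC1 at 21.4 and 16.6 CPM against 6.09, 6.51 and 7.46 CPM (log2 fold change -1.51 ± 0.24, adjusted p = 0.000114), each without overlap. NDUFA4L2, a paralog of a respiratory subunit, was at 0.0867 and 0.0409 CPM against 43.6, 11.8 and 18.9 CPM (a ratio of 392 with a 95% counting interval of 134 to 1905). The ATP synthase subunit ATP5F1B, at 1637 and 1328 CPM against 1290, 1487 and 1604 CPM, had overlapping groups.

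Most genes of the mitochondrial genome were called lower in endoderm. Of 13 protein genes 8 fell (median -1.34, but -0.82 without hESC replicate 1), or 3 fell without hESC replicate 1, the library with the highest mitochondrial share. Their summed level was 222524 and 139724 CPM in hESC and 59750, 105732 and 118408 CPM in endoderm. MT-ATP6 was at 21810 and 12670 CPM against 3261, 5806 and 6465 CPM (log2 fold change -1.74 ± 0.26, adjusted p = 8.28e-05) and MT-ND2 at 12890 and 7630 CPM against 2980, 3353 and 3849 CPM, below hESC in each endoderm library. MT-CO1 was at 53610 and 37060 CPM against 22250, 39170 and 43200 CPM with overlapping groups. The part of this share in the other results was not tested beyond leaving these genes out, which gave 5411 called genes in place of 5405.

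Several biosynthetic lists had more genes called lower than higher. Of 28 genes of serine, glycine and one-carbon metabolism 9 fell (median -0.94). With edgeR 0 were called higher (1 at an unadjusted p under 0.05, and 1 called without hESC replicate 2), and with DESeq2 and limma-voom 0. MAT2A, which makes S-adenosylmethionine from methionine, was at 191 and 178 CPM against 8.43, 21.4 and 18 CPM (log2 fold change -3.53 ± 0.29, adjusted p = 1.66e-07), and its regulatory subunit gene MAT2B at 75.3 and 71.1 CPM against 32.4, 25.5 and 23.8 CPM. GLDC, of the glycine cleavage system, was at 108 and 109.7 CPM against 20.6, 39.96 and 37.5 CPM (log2 fold change -1.74 ± 0.24, adjusted p = 3.72e-05). All 3 were below hESC in every endoderm library, whereas PHGDH, the entry enzyme of serine synthesis, was at 394 and 411 CPM against 426, 408 and 374 CPM with overlapping groups. Of 31 cholesterol genes 1 rose and 8 fell (median -0.43), or 2 rose without hESC replicate 1, endoderm replicate 1 or endoderm replicate 3. The synthesis enzymes SQLE and LSS were at 314 and 265 CPM against 118, 91.4 and 95.2 CPM and at 184 and 195 CPM against 56.6, 73.9 and 63.1 CPM, without overlap. INSIG2, which retains the precursors of the SREBP activators in the endoplasmic reticulum, rose, at 7.37 and 6.09 CPM against 96.5, 35.5 and 37.6 CPM (log2 fold change 3.07 ± 0.39, adjusted p = 1.62e-05).

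Of 34 fatty acid genes 4 rose and 4 fell (median -0.01, but -0.04 without hESC replicate 2, and 0.06, -0.07 and -0.09 without endoderm replicates 1, 2 and 3). Each direction held 11.8% of the list, near the 14.2% and 11.8% over all genes. The elongase ELOVL2 was at 2.08 and 1.51 CPM against 25.3, 25.9 and 30.9 CPM (log2 fold change 3.93 ± 0.28, adjusted p = 3.38e-08) and its relative ELOVL6 at 130.2 and 148 CPM against 56.5, 51.5 and 59.2 CPM (log2 fold change -1.32 ± 0.18, adjusted p = 3.12e-05), in opposite directions and each without overlap, while FASN was at 892 and 1107 CPM against 892, 743 and 768 CPM with overlap. Of 24 amino acid response and carrier genes 3 rose and 8 fell (median -0.53, but -0.28 without hESC replicate 1), or 5 fell without hESC replicate 1. The stress-responsive factors DDIT3 and ATF3 were at 0.954 and 2.08 CPM against 21.4, 17.8 and 24.7 CPM and at 7.67 and 6.46 CPM against 43.6, 91.6 and 84.2 CPM, higher in each endoderm library, but ATF4 was at 309 and 327 CPM against 287, 302 and 289.5 CPM and was not called. The amino acid carriers SLC7A8 and SLC38A1 fell, at 194 and 214 CPM against 37.1, 39.4 and 34.9 CPM (log2 fold change -2.46 ± 0.18, adjusted p = 4.75e-08) and at 450.2 and 386 CPM against 154, 102 and 87.2 CPM. Of 13 iron and heme genes 3 rose and 4 fell (median 0.51, but 0.15 without endoderm replicate 3). The iron exporter SLC40A1 was at 0.607 and 0.245 CPM against 7.51, 13 and 11.5 CPM, the ferritin chain FTL at 535 and 797 CPM against 1958, 1657 and 1763 CPM, and the importer SLC11A2 at 120.3 and 90.2 CPM against 45.9, 46.3 and 42.5 CPM, with no overlap for any of them.

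Of 11 tested lipoprotein and plasma carrier genes 2 rose and 3 fell (median 0.19, but 0.78 and 0.55 without hESC replicates 1 and 2, and 0.55, 0.44 and -0.56 without endoderm replicates 1, 2 and 3), with 1 rise without either hESC replicate or endoderm replicate 2 or 3. APOC1 was at 33 and 24.8 CPM against 75.4, 78 and 88.7 CPM (log2 fold change 1.48 ± 0.21, adjusted p = 3.91e-05), and APOB, the core protein of large lipoproteins, fell, at 7.11 and 5.15 CPM against 0.102, 0.512 and 0.0649 CPM (log2 fold change -4.63 ± 0.51, adjusted p = 3.28e-06). APOE was not called, at 191 and 167 CPM against 316, 254 and 270 CPM. Glycosyltransferases that build glycolipid antigens had 4 of 22 called higher and 4 lower (median -0.09, but 0.02 and -0.23 without hESC replicates 1 and 2, and -0.36, 0 and 0.07 without endoderm replicates 1, 2 and 3). Each direction held 18.2% of this list, against 14.2% and 11.8% over all genes. ST3GAL5 and ST8SIA1, sialyltransferases of ganglioside synthesis, were at 1.52 and 1.02 CPM against 13.4, 10.3 and 13 CPM and at 0.52 and 0.859 CPM against 19.6, 10.4 and 20.04 CPM (log2 fold change 4.58 ± 0.40, adjusted p = 3.1e-07). B3GALT5, a galactosyltransferase of the globo-series pathway of stem cell antigens, was at 16.4 and 20.5 CPM against 3.45, 2 and 1.23 CPM (log2 fold change -3.03 ± 0.33, adjusted p = 3.54e-06). Endoderm thus lay higher for the ganglioside genes and lower for B3GALT5, with separate groups in each case.

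Among surface antigens, 7 of 36 tested genes rose and 10 fell (median -0.44, but -0.29 without hESC replicate 1, and -0.25 and -0.28 without endoderm replicates 2 and 3), or 6 fell without hESC replicate 1. CD177, a GPI-anchored protein, was at 1.6 and 0.941 CPM against 49.2, 40.6 and 52.9 CPM (log2 fold change 5.22 ± 0.30, adjusted p = 4.11e-09). The adhesion molecules NCAM1 and L1CAM were at 16.3 and 21.8 CPM against 143, 87.2 and 142 CPM and at 2.99 and 4.33 CPM against 54.6, 41.5 and 50.6 CPM, so all 3 were higher in each endoderm library. PROM1, which encodes CD133, was at 102 and 75.4 CPM against 9.24, 4.7 and 3.83 CPM (log2 fold change -3.90 ± 0.30, adjusted p = 8.94e-08), THY1 (CD90) at 164 and 173 CPM against 36.8, 32.3 and 27.4 CPM (log2 fold change -2.39 ± 0.19, adjusted p = 1.21e-07), and the ligand of SIRPA, CD47, at 16.3 and 11.2 CPM against 2.33, 3.26 and 2.4 CPM. These were lower in each endoderm library. PODXL, a sialomucin of stem cells, was at 384 and 485 CPM against 324, 654 and 482 CPM, was not called and overlapped between groups. BSG, the chaperone of lactate carriers, stayed under the fold limit at 851 and 713 CPM against 1125, 1170 and 1266 CPM.

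**Figure D3:**
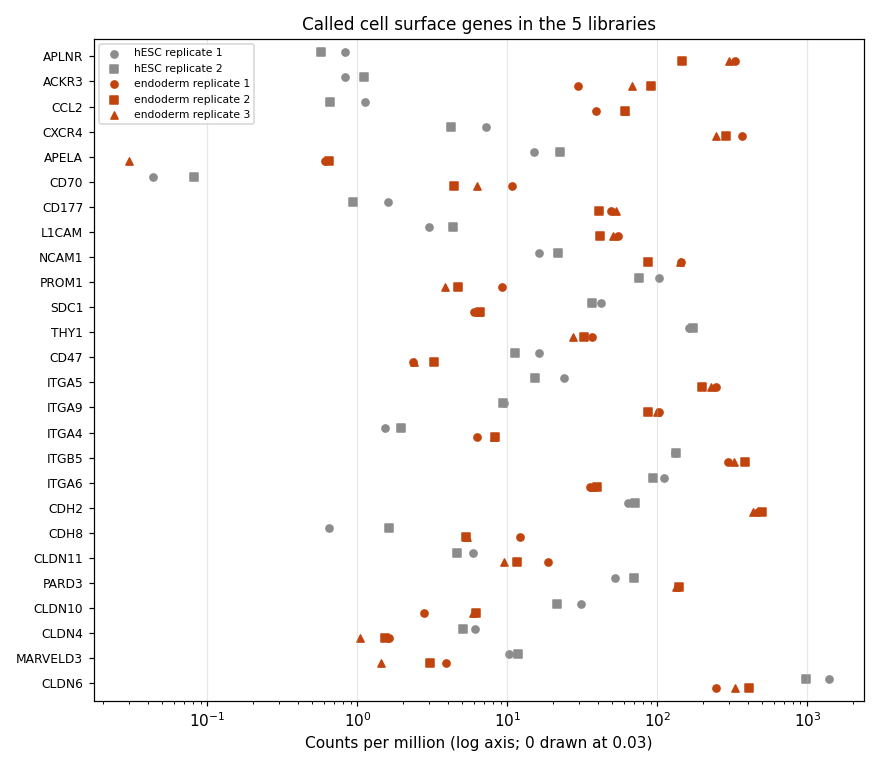
CPM (log axis) in each library of the called genes named by the rule from the lists of surface antigens, chemokine and apelin axes, integrins, cadherins and tight junctions, hESC in grey and endoderm in red. APLNR, CXCR4, ITGA5 and CDH2 lie higher in endoderm, and PROM1, THY1, ITGA6 and CLDN6 lie higher in hESC.

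Of 22 integrin subunits 7 rose and 3 fell (median 0.37, but 0.58 without hESC replicate 1, and -0.05 and 0.24 without endoderm replicates 1 and 2). The fibronectin receptor subunit ITGA5 was at 23.8 and 15.4 CPM against 248, 199 and 228 CPM (log2 fold change 3.52 ± 0.24, adjusted p = 2.58e-08), and the laminin receptor subunit ITGA6 at 110.4 and 93 CPM against 35.8, 39.6 and 37.2 CPM (log2 fold change -1.44 ± 0.18, adjusted p = 1.62e-05). Endoderm was above hESC for the first and below for the second in all libraries. Of 24 cadherins 5 rose and 2 fell (median -0.12, but -0.06 and -0.05 without hESC replicates 1 and 2, and -0.19 and -0.20 without endoderm replicates 1 and 2), or 3 rose without either hESC replicate or endoderm replicate 3 and 4 fell without endoderm replicate 1. N-cadherin, CDH2, was at 63.8 and 71.1 CPM against 467, 497 and 433 CPM (log2 fold change 2.79 ± 0.20, adjusted p = 3.14e-08), while E-cadherin, CDH1, was at 221 and 204 CPM against 210.3, 138 and 90.5 CPM (log2 fold change -0.54 ± 0.26, adjusted p = 0.119), not called and with overlapping groups. Of 58 protocadherins 2 rose and 8 fell (median -0.61), with 14 falls without endoderm replicate 1 and 5 without hESC replicate 1. The genes that rose were PCDH10, at 2.73 and 2.98 CPM against 409, 229.6 and 206 CPM (log2 fold change 6.62 ± 0.35, adjusted p = 2.03e-09), and PCDH7, at 3.17 and 2.86 CPM against 21.4, 19.4 and 14.4 CPM. The clustered protocadherins share exons, so their counts are uncertain.

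Of 27 claudins and other tight junction genes 5 rose and 8 fell (median -0.11, but -0.19 and -0.32 without hESC replicates 1 and 2, and -0.38 and -0.32 without endoderm replicates 1 and 2), or 3 rose without hESC replicate 2. CLDN6, a claudin of pluripotent cells, was at 1384 and 977 CPM against 247, 409 and 330.2 CPM (log2 fold change -1.84 ± 0.22, adjusted p = 8.01e-06) and CLDN10 at 31 and 21.4 CPM against 2.79, 6.19 and 5.9 CPM, both below hESC in each endoderm library, and the scaffold TJP1 had overlapping groups. Of 29 basement membrane genes 9 rose and 2 fell (median 0.54), with 1 fall without hESC replicate 2 or endoderm replicate 2 and none called by edgeR without hESC replicate 1 (1 at an unadjusted p under 0.05). The collagen-binding protein SPARC was at 139 and 144 CPM against 743, 536 and 688 CPM (log2 fold change 2.21 ± 0.20, adjusted p = 5.56e-07), and FREM1 at 1.43 and 1.76 CPM against 54.2, 103 and 112 CPM (log2 fold change 5.80 ± 0.36, adjusted p = 7.87e-09). Of 35 fibrillar matrix genes 19 rose and 3 fell (median 1.54, or 1.28 with genes at 0 reads in a group set to their bound), with a summed level of 1065 and 1012 CPM in hESC and 4421, 3540 and 3851 CPM in endoderm. COL5A2 was at 26.3 and 24.5 CPM against 565, 438 and 546 CPM (log2 fold change 4.35 ± 0.22, adjusted p = 1.35e-09), the protease inhibitor TIMP3 at 6.03 and 3.88 CPM against 104, 80.7 and 106 CPM, and the collagen cross-linker LOX at 1.56 and 0.532 CPM against 49.5, 21.9 and 24.1 CPM. The proteoglycan VCAN fell, at 266 and 237 CPM against 100.5, 116 and 94 CPM, and the groups were separate for each of these genes.

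Among membrane proteins of transport, 39 of 292 tested solute carriers rose (13.4%) and 80 fell (27.4%), against 14.2% and 11.8% of all genes. The median of the solute carriers was -0.44, but -0.25 without hESC replicate 1, and 51 of them fell without that library. SLC5A9, a sodium-coupled sugar carrier, had no read in hESC and was at 14.9, 12.1 and 10.9 CPM in endoderm (at least 199.9-fold higher). The glutamate carrier SLC1A3 was at 91.7 and 56 CPM against 3.65, 2.09 and 2.08 CPM (log2 fold change -4.81 ± 0.29, adjusted p = 6.53e-09), and the aromatic amino acid carrier SLC16A10 at 16.1 and 11.2 CPM against 1.17, 1.35 and 1.49 CPM, both lower in each endoderm library. Of 78 potassium channel genes 13 rose and 15 fell (median 0.05, but 0.17 and -0.15 without hESC replicates 1 and 2, and -0.21, -0.10 and 0.26 without endoderm replicates 1, 2 and 3, and -0.05 with limma-voom). Their shares were 16.7% and 19.2%, beside 14.2% and 11.8% over all genes. KCNG1 was at 6.55 and 6.87 CPM against 156, 147 and 149 CPM (log2 fold change 4.49 ± 0.22, adjusted p = 8.84e-10) and KCNK12 at 2.6 and 2.29 CPM against 38, 61.1 and 53 CPM, while KCNN2 was at 10.2 and 7.4 CPM against 0.812, 0.698 and 0.584 CPM (log2 fold change -3.63 ± 0.32, adjusted p = 3.98e-07). Of 19 tetraspanins 1 rose and 6 fell (median -0.16, but -0.35 without hESC replicate 2, and -0.26, -0.37 and -0.25 without endoderm replicates 1, 2 and 3), and edgeR called none higher without hESC replicate 2 or endoderm replicate 1 (2 in each case at an unadjusted p under 0.05). TSPAN13 was at 61 and 49.8 CPM against 19.2, 12.6 and 14.5 CPM, below hESC in all endoderm libraries.

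Receptors coupled to G proteins (orphan, adhesion, lysophospholipid and purine groups) were called higher 14 times and lower 14 times among 77 (median -0.25, but -0.07 and -0.13 without hESC replicates 1 and 2, and -0.12 without endoderm replicate 3). That was 18.2% each way, against 14.2% and 11.8% over all genes. The sphingosine 1-phosphate receptor S1PR3 was at 5.64 and 5.77 CPM against 236, 186 and 187 CPM (log2 fold change 5.15 ± 0.24, adjusted p = 5.25e-10), and the lysophosphatidic acid receptor LPAR3 at 33.9 and 27.9 CPM against 2.84, 2.14 and 2.27 CPM (log2 fold change -3.67 ± 0.25, adjusted p = 1.92e-08). Their groups were separate in opposite directions. Of 50 TNF and interleukin receptors 11 rose and 6 fell (median 0.45, or 0.36 with genes at 0 reads in a group set to their bound), or 3 fell without hESC replicate 1 and 7 rose without hESC replicate 2. With all libraries the shares were 22% and 12%. TNFRSF8, which encodes CD30, was at 46.7 and 39.6 CPM against 3.35, 1.35 and 1.1 CPM (log2 fold change -4.46 ± 0.34, adjusted p = 8.77e-08), and IFNGR2, a chain of the interferon gamma receptor, at 18.6 and 15.7 CPM against 47, 39.5 and 41.8 CPM (log2 fold change 1.32 ± 0.21, adjusted p = 0.000117). CD30 was lower and IFNGR2 higher in each endoderm library.

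Cell cycle genes fell in part. Of 38 genes 3 rose and 14 fell (median -0.45), with a summed level of 5440 and 5460 CPM in hESC and 2652, 3410 and 3424 CPM in endoderm. The replication genes PCNA and MCM4 were at 319.6 and 280.3 CPM against 60, 74.5 and 79.8 CPM (log2 fold change -2.07 ± 0.19, adjusted p = 4.67e-07) and at 278 and 324 CPM against 51.4, 96.2 and 88 CPM. The cyclin CCND2 rose, at 47.6 and 55.7 CPM against 183, 161 and 162 CPM (log2 fold change 1.71 ± 0.19, adjusted p = 4.96e-06), in contrast to the fall of CCND1 given above. TOP2A, a gene of the G2 and M phases, was at 242 and 282 CPM against 262, 234 and 242 CPM, not called and overlapping. In the list of apoptosis and p53 genes 4 of the 22 tested genes were called higher and 7 lower (median -0.25, but -0.55 and -0.48 without hESC replicates 1 and 2, and -0.48 without endoderm replicate 1), or 2 higher without hESC replicate 1. The death effectors BBC3 (PUMA) and PMAIP1 (NOXA) moved in opposite directions, at 2.56 and 3.88 CPM against 28.5, 12 and 13 CPM and at 82.2 and 85.3 CPM against 35.4, 26 and 20.2 CPM, and the groups were separate for both.

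TE loci were counted outside annotated exons, so that a spliced gene transcript does not count for the repeats in it. Of 4570939 loci, 172452 had a read in the 5 libraries, and 156813 of those overlapped no exon, 117441 of them inside a gene body and 39372 outside. Of 31441 tested loci (at least 3 reads in at least 1 library), 1187 were called (3.78%), 820 higher (2.61%) and 367 lower (1.17%). No read was seen in hESC for 526 of the loci called higher, and none in endoderm for 99 of those called lower. Of the tested loci, 842 had a mean of at least 1 CPM in the higher group. Inside gene bodies 416 loci rose and 211 fell among 22682, and outside 404 rose and 156 fell among 8759.

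Among the libraries, hESC replicate 1 stood apart at thinly covered TE loci. Loci with at least 3 reads inside gene bodies numbered 11881 in hESC replicate 1 against 6264 in hESC replicate 2 and 4938, 5220 and 3680 in endoderm. For 8675 of the 11881, no other library reached 3 reads. The summed level of tested Alu loci was 1711 CPM in hESC replicate 1 against 792.1 CPM in hESC replicate 2 and 830.0, 913 and 894 CPM in endoderm. The median log2 fold change over tested loci was -1.41. It was 0.95 without hESC replicate 1 and -1.19 with library sizes from TE reads. Without that library 20258 loci were tested and 768 called, 585 higher and 183 lower. With at least 3 reads required in 2 libraries, a filter chosen after seeing the data, 8046 loci were tested and 1950 called, 1060 higher and 890 lower, with a median of -0.12.

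Endogenous retroviruses of the HERVH family, an internal part flanked by LTR7 repeats, changed in both directions. Of 717 tested HERVH and LTR7 loci 166 rose and 40 fell (28.7% called, against 3.78% of all loci). As called with all 5 libraries, the 40 loci that fell held most of the family's reads in hESC. They summed to 3043 and 3344 CPM in hESC and 1170, 1251 and 919.8 CPM in endoderm. Of the hESC sum, loci at chr1:223197738-223203498 held 756 and 938 CPM, at chr3:112137259-112142212 642 and 761 CPM and at chr4:180087630-180091722 545 and 488 CPM. Each lost its call without either hESC replicate, without endoderm replicate 2 or 3, and with the replicate number as a block. The share held by fallen loci therefore depends on these calls. The 166 loci that rose summed to 40.2 and 49.7 CPM in hESC and 1062, 1130 and 1026 CPM in endoderm, and 63 of them had no read in hESC. The 511 loci that were not called summed to 859.6 and 1007 CPM in hESC and 845, 745 and 558 CPM in endoderm. The family as a whole therefore summed to 3943 and 4401 CPM in hESC and 3077, 3125 and 2503 CPM in endoderm, lower in every endoderm library although more loci rose than fell. The loci on chromosomes 1, 3 and 4 named above are part of this fall. In endoderm they were at 276.5, 421 and 326 CPM, at 385, 346 and 263 CPM and at 240, 194 and 141 CPM, in that order. The family without them was not summed. Loci outside gene bodies summed to 3495 and 3889 CPM in hESC and 2387, 2390 and 1890 CPM in endoderm, whereas those inside gene bodies went the other way, from 448 and 512 CPM to 690, 736 and 613 CPM. As a share of the CPM of all tested loci, which no library scaling moves, the family held 45.7% and 58.3% in hESC and 36.0%, 41.6% and 34.9% in endoderm. A share also falls when other families gain. The HERVS71 and LTR6 family, described below, went from 0.0734% and 0.0791% in hESC to 7.12%, 6.93% and 9.13% in endoderm. Without hESC replicate 1 the numbers were 135 higher and 31 lower, without hESC replicate 2 they were 130 and 18, and without endoderm replicate 3 they were 151 and 25. With library sizes from TE reads they were 168 and 25, with the replicate number as a block 137 and 23, and with at least 10 reads over the 5 libraries 194 and 68 of 570, a filter at which 2059 of 7276 loci of any kind were called, so that the family stands out less.

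**Figure D4:**
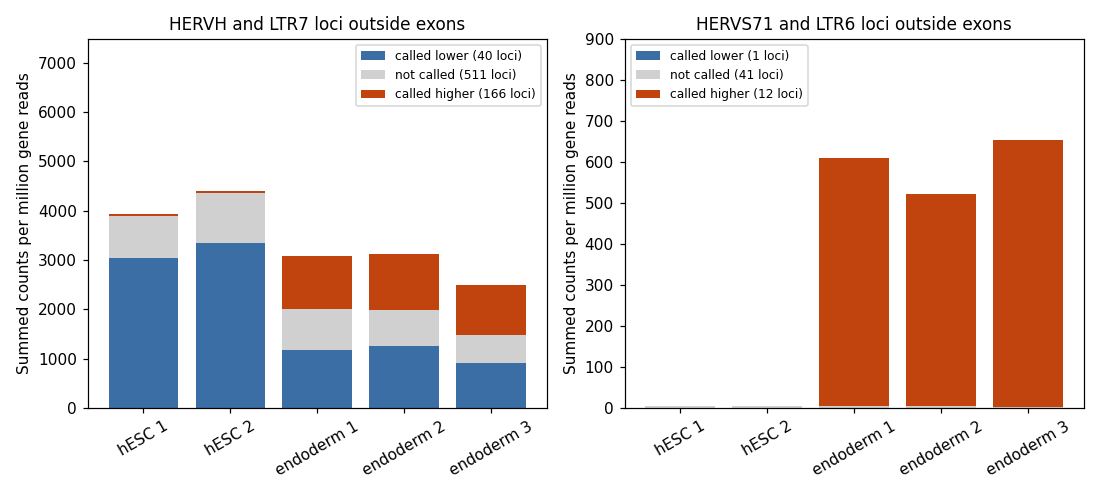
Summed CPM of tested loci outside exons in each library, split into loci called lower, not called and called higher, for HERVH and LTR7 (left) and HERVS71 and LTR6 (right). In HERVH the 40 loci called lower shrink and the 166 called higher take about 1026 to 1130 CPM in endoderm, whereas HERVS71 appears in endoderm through 12 loci. Calls are those with all libraries, and the most abundant HERVH loci called lower lost their calls without either hESC replicate.

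Motif letters were counted at the ends of HERVH loci, without a test between groups of loci. Of LTR7-flanked HERVH loci, AGATAA or its complement TTATCT, a core that GATA factors can bind, was in the first 300 bases of 56 of 127 called higher (44.1%), 13 of 35 called lower (37.1%) and 104 of 351 not called (29.6%), against 2537 of 16667 tested loci of any kind of at least 300 bases (15.2%). In the last 300 bases the shares were 40.2%, 45.7% and 33.3%. First and last are on the plus strand of hg19, and since the TE tables give no strand it is not said here which flank is the promoter side. Cores that other factors can bind were searched as well, each on both strands, namely TGATAA for GATA factors, ATTTGCAT for POU factors, TGTTTAC for FOX factors, TCACACC for T-box factors and ACAATAG for SOX factors. In the first 300 bases TGATAA was in 7 of the 127 risen loci (5.51%), 0 of the 35 fallen and 17 of the 351 not called (4.84%), against 12.1% of all loci, and TCACACC in 1 of the risen (0.787%), 0 of the fallen and 6 not called (1.71%), against 9.79%. TGTTTAC, ATTTGCAT and ACAATAG were not found in the first 300 bases of any of the 127 risen and 35 fallen loci, which says only that these letters are not in that window. Their shares over all loci were 2.88%, 2.11% and 3.35%.

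The most abundant fallen HERVH locus outside gene bodies, at chr1:223197738-223203498 on hg19, was at 756 and 938 CPM against 276, 421 and 326 CPM (log2 fold change -1.31 ± 0.33, adjusted p = 0.00399), and its call was lost when any 1 of the 5 libraries was left out (log2 fold changes of -1.15 to -1.50), and also with library sizes from TE reads and with the replicate number as a block. Inside gene bodies, a HERVH locus at chr12:14858355-14863574 in GUCY2C-AS1 was at 163 and 162 CPM against 28.1, 22.7 and 17 CPM (log2 fold change -2.85 ± 0.36, adjusted p = 6.59e-13). A HERVH locus within SLC25A48 at chr5:135070535-135073175 had no read in hESC and was at 68.2, 59.5 and 68.2 CPM in endoderm (at least 1034-fold higher), and SLC25A48 itself rose. Another within SNHG16 at chr17:74602070-74607593 was at 0.867 and 0.941 CPM against 28.7, 67.5 and 57.1 CPM (log2 fold change 5.81 ± 0.50, adjusted p = 2.45e-28), while SNHG16 was not called. Separate groups were a condition for naming these loci, and 1160 of the 1187 called loci had them.

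HERVS71, with its LTR6A and LTR6B flanks, had the largest relative gain of summed level among the TE families compared. Of 54 tested loci 12 rose and 1 fell (24.1% called, and none called lower by edgeR without hESC replicate 2, with 1 lower at an unadjusted p under 0.05), and the summed level of the 54 loci was 6.33 and 5.97 CPM in hESC and 609, 521 and 654 CPM in endoderm. The highest mean HERVS71 level in endoderm was that of a locus with an LTR6A flank at chr18:47931542-47935100, at 0.26 and 0.573 CPM against 380.4, 140.1 and 210.4 CPM (log2 fold change 9.17 ± 0.56, adjusted p = 1.9e-57). Endoderm replicate 1 was highest there, and separate groups were a condition for naming the locus. Among risen HERVS71 and LTR6 loci of at least 300 bases, 3 of 12 held AGATAA, 4 of 12 TGATAA and 1 of 12 TGTTTAC in the first 300 bases, against 10 of 32, 12 of 32 and 9 of 32 among those not called.

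Other families changed in smaller shares. MaLR elements (THE1, MST and MLT1) had 96 loci higher and 32 lower among 1785, or 20 lower without endoderm replicate 3 and 12 without hESC replicate 2. A THE1D internal part at chr13:51749145-51749799 within C13orf42 fell, at 117 and 105 CPM against 23.9, 29.6 and 24.8 CPM (log2 fold change -2.09 ± 0.36, adjusted p = 5.98e-07). HERVK and LTR5 had 10 higher and 2 lower among 108 (1 lower without hESC replicate 1 or endoderm replicate 2 or 3), summing to 17.8 and 15.4 CPM in hESC and 49.7, 59.5 and 75.5 CPM in endoderm. Of this sum 1 risen locus, an internal part with an LTR5A flank, held 4.77 and 3.48 CPM in hESC and 26.1, 38.1 and 52.99 CPM in endoderm. HERV9 and LTR12 had 10 higher among 133, or 6 without hESC replicate 2. HERVK11 and MER11 had 10 higher among 159, or 5 and 4 without hESC replicates 1 and 2 and 6 without endoderm replicate 1 or 3. With the replicate number as a block this family had 3 higher. The hominid SVA elements had 3 higher and 5 lower among 137. L1 had 134 higher and 69 lower among 6096, and Alu 123 and 123 among 11768, both below the 3.78% called over all loci. Without hESC replicate 1 the lower count of Alu was 27 and the higher count of L1 was 88. Without hESC replicate 2 the counts were 81 higher and 141 lower for Alu and 89 higher and 43 lower for L1, and without endoderm replicates 2 and 3 the lower counts were 77 and 78 for Alu and 38 and 45 for L1. The balance of Alu turned with the method, at 98 higher and 45 lower with DESeq2, 75 and 50 with limma-voom, 144 and 90 with library sizes from TE reads, 76 and 35 with the replicate number as a block and 202 and 315 with at least 10 reads over the 5 libraries. With limma-voom the higher counts were 80 for L1, 5 for HERVK, 6 for HERV9, 4 for HERVK11 and 1 for SVA. MaLR had 14 lower with limma-voom or DESeq2. The lower count of L1 was 33 with limma-voom, 29 with DESeq2 and 30 with the replicate number as a block. With that block the higher counts were 80 for L1 and 6 for HERV9, and MaLR had 12 lower. At that fixed filter of at least 10 reads, 2059 of 7276 loci were called, 1194 of them higher.

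The 2 most abundant risen loci of single repeats lay beyond the 3′ end of CER1 on the minus strand of chromosome 9. A MIRb copy at chr9:14717445-14717578, 2144 bases past the gene, had no read in hESC and was at 560.3, 235 and 296 CPM in endoderm. A MADE2 copy at chr9:14718014-14718075, 1647 bases past the gene, had no read in hESC and was at 523, 80.8 and 104 CPM. Both were highest in endoderm replicate 1, at which CER1 was not highest. Calls of loci and of the genes around them were also counted. Of 307 risen loci inside a tested gene, 195 lay in a gene that rose and 14 in a gene that fell. Of 165 fallen loci inside a tested gene, 58 lay in a gene that fell and 8 in a gene that rose. For 19489 loci that were not called, the numbers were 3284 in genes that rose and 2877 in genes that fell. Whether reads of such loci belong to the gene's transcript was not tested.

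Summed by subfamily over loci outside exons, 164 of 1042 subfamilies were called on the adjusted p (15.7%), 84 higher (8.06%) and 80 lower (7.68%). The largest rises among those over 1 CPM were LTR6B, HERVS71-int, LTR6A, MADE2, LTR19C and LTR1B. Reads of a locus that merges several subfamilies count under each, so those of LTR6B, HERVS71-int and LTR6A are in part the same reads. LTR19C was at 0 and 0.204 CPM against 12.9, 9.63 and 18.2 CPM (log2 fold change 6.94 ± 0.56, adjusted p = 6.32e-21), and LTR1B at 0.173 and 0.164 CPM against 13.2, 6.28 and 4.41 CPM (log2 fold change 5.52 ± 0.53, adjusted p = 1.67e-16), with separate groups. MADE2 was at 2.04 and 1.15 CPM against 525, 81.7 and 106 CPM, of which the locus near CER1 held 523, 80.8 and 104 CPM in endoderm, and beyond 10 kb of protein-coding genes it was not called (log2 fold change 1.88). Among falls, hAT-1_Mam was at 2.69 and 1.64 CPM against 0.305, 0.186 and 0.324 CPM (log2 fold change -2.99 ± 0.51, adjusted p = 9.87e-07, not called beyond 10 kb of protein-coding genes at -2.87) and L1PB2 at 5.9 and 15 CPM against 2.49, 1.63 and 1.56 CPM (log2 fold change -2.46 ± 0.35, adjusted p = 9.29e-09). AluYg6, at 2.47 and 0.9 CPM against 0.457, 0.233 and 0.389 CPM, was not called without hESC replicate 1 (log2 fold change -1.33), the library with the high Alu level. Without that library 85 subfamilies were called, 63 higher and 22 lower, and without endoderm replicate 3 there were 101, 72 higher and 29 lower.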

How the data were processed

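Polyadenylated RNA of H9 hESC and endoderm cultures was sequenced from stranded mRNA libraries. The authors deposited raw counts of reads per gene and per TE locus for each library, after alignment to hg19 with HISAT2 (a tool named in the submitters' processing notes) and a mapping quality minimum of 10. The labels give no version of it, and no source used here says whether reads were counted by strand.

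Gene and TE counts were tested with the quasi-likelihood F test of edgeR 4.0.16 (R 4.3.3) with TMM factors and no covariate. TE loci and subfamilies used the library sizes and factors of genes. Features needed at least 3 reads in at least 1 library. Genes and TE loci were called at an adjusted p under 0.05 and a fold over 2, whereas for subfamilies no fold limit was set. A gene with no read in a group was set against a floor of 3 reads over the group. Of 63677 gene identifiers, 55665 matched the GENCODE annotation of the hg19 build, and loci that overlapped an exon of it were left out with bedtools 2.31.1. Sequences were read with samtools 1.23.1 and searched with python 3.11.15. DESeq2 1.42.0 and limma 3.58.1 were alternatives, with other scalings, filters, thresholds and each library left out. The tests were also run on simulated data.

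Members and gene lists were chosen with earlier results of these data known. Each list gave the text up to 4 called genes in each direction with the largest absolute log2 fold change among those with at least 5 CPM in the higher group, and up to 2 uncalled genes of highest mean CPM. The transcriptome gave the 10 largest gains and 10 largest losses of mean CPM outside the mitochondrial genome, and the 10 largest rises and 10 largest falls by log2 fold change among called genes without overlap of the groups and with at least 20 CPM in the higher group. TE loci gave the 6 most abundant called loci without overlap of the groups, in each direction, inside and outside gene bodies. Subfamilies gave the 6 largest rises and 6 largest falls over 1 CPM. Markers of all cell types could be named as well. The symbols ACACA, CD24, LHX1 and PECAM1 matched no identifier and were not analysed here. Some further genes and sequences are not reported here.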

Additional observations from a re-analysis of the deposited data

How the results depend on the processing

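Leaving out 1 library at a time gave 4006 to 5544 called genes, 768 to 1072 TE loci and 85 to 215 subfamilies. glmTreat against a fold of 2 called 2774 genes. Called TE loci numbered 697 with limma-voom, 651 beyond 10 kb of protein-coding genes, 2059 with at least 10 reads in total and 1950 with at least 3 reads in 2 libraries, which was chosen after seeing the data. Same-numbered libraries deviated together from their group means at correlations of 0.0297 and 0.0345. With only 2 hESC libraries, whose deviations mirror each other, these values cannot decide whether the replicate numbers pair the libraries. With the replicate number as a block 5047 genes, 680 loci and 128 subfamilies were called. The cause was not tested for any of these.

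The share of called TE loci that were higher was 69.1%, against 80.2% with DESeq2, 58.0% with at least 10 reads and 54.4% with at least 3 reads in 2 libraries, while library sizes from TE reads gave 895 higher and 243 lower and the block 551 and 129. For subfamilies it was 51.2%, against 65.8% with DESeq2, 66.9% with library sizes from TE reads and 72.3% beyond 10 kb of protein-coding genes. Without hESC replicate 1 it was 74.1%, without endoderm replicate 2 it was 63.4% and without endoderm replicate 3 it was 71.3%. More were lower than higher without endoderm replicate 1 (41.4%, 89 higher and 126 lower), without hESC replicate 2 (47.1%) and with loci of a single subfamily name (49.0%). Charlie10 reversed, from -2.27 to 0.26 beyond 10 kb of protein-coding genes, and the cause was not tested.

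Among gene lists, the lower count of Nodal and Activin genes was 3 with DESeq2 and 2 with the block in place of 5. The higher counts were 2 in place of 4 for Hedgehog genes and 1 in place of 2 for lipoprotein genes with DESeq2 or limma-voom, and with the block 3 in place of 5 for cadherins, 1 in place of 2 for lipoprotein genes and 2 in place of 1 for cholesterol genes. Of 396 named genes and markers 297 were called. With glmTreat 65 of the 297 lost the call. In the other alternatives run none of them changed sign and 34 lost the call, 11 of them other than by leaving out a library. Without hESC replicate 1 the number lost was 24, and without hESC replicate 2 it was 18. Of those not called, 33 were called without a fold limit and 12 in another alternative. Of 24 named TE loci 6 lost the call, and of 12 named subfamilies 6. In simulated data with 4-fold changes at features with at least 10 reads on average, 27 of 200 changed TE loci and 185 of 200 changed genes were called.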

Other observations

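Ribosomal protein genes, splicing factors and genes known to respond to low oxygen were looked at as lists after values were seen, so their counts only describe these libraries. Of 85 tested ribosomal protein genes 33 rose and 2 fell, and the median log2 fold change was 0.91 (0.04 over all genes). They summed to 68802 and 71394 CPM in hESC and to 140373, 122324 and 143692 CPM in endoderm. The genes that fell were RPL22L1, a paralog of RPL22, at 163 and 138 CPM against 52.3, 54.5 and 59.5 CPM, and RPS10, and only 1 fell without hESC replicate 2 or endoderm replicate 1. Many members lay close to the fold limit, since glmTreat called 4 higher and 1 lower, RPL22L1 and not RPS10. Genes of this family have processed pseudogenes that can share their reads. Of 37 genes of SR and hnRNP splicing factors 12 fell (median -0.60). With edgeR 0 rose (3 at an unadjusted p under 0.05), with DESeq2 and limma-voom 0, and with any 1 library left out 1 was called higher. SRSF2 was at 439 and 414 CPM against 48.2, 89.0 and 88.8 CPM, and TRA2B, an SR-related factor, at 375 and 369 CPM against 103, 91.0 and 114 CPM. Both were lower in every endoderm library.

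Of 20 genes known to respond to low oxygen 16 rose (median log2 fold change 3.01), and 16 also rose without each library in turn. With edgeR 0 fell, at an unadjusted p under 0.05 also 0, and DESeq2 and limma-voom called 0 lower. Their summed level was 527 and 517 CPM in hESC and 4551, 2953 and 3222 CPM in endoderm, highest in endoderm replicate 1. BNIP3, a mitophagy receptor, was at 43.96 and 42.48 CPM against 1368, 779 and 898 CPM. NDRG1 was at 1.99 and 1.80 CPM against 107, 68.3 and 76.3 CPM, and DDIT4, an inhibitor of mTORC1, at 12.0 and 11.6 CPM against 536, 590 and 616 CPM. The groups were separate at all 3 genes. AK4, which is also in the list, overlapped between groups, and CA9 was not called at 0.997 and 0.532 CPM against 1.32, 1.35 and 1.43 CPM. The letters ACGTG or GCGTG were in 12 of the 14 promoters of risen list genes that the RefSeq table holds (85.7%), against 48.4% of all promoters, 59.4% of those of protein-coding genes called higher and 61.4% of those not called. The list was chosen after its values were seen. The oxygen tension of the cultures was not analysed here.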
